A study of Mus musculus with 12 samples.

Results

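The genes described here are 9 solute carriers and the transferrin receptor of the T cell surface, taken by symbol from a fixed list of 10 out of 49585 genes in the count files. The carriers are Slc7a5, Slc3a2, Slc7a6, Slc7a11, Slc7a1, Slc1a5, Slc38a1 and Slc38a2, which belong to amino acid transport, and Slc29a1, which carries nucleosides and not amino acids. Naive CD4 T cells from the lymph nodes of female mice were purified with magnetic beads and activated for 20 h on plates coated with 5 µg/ml anti-CD3 and 1 µg/ml anti-CD28, and 0.1 mg/ml cycloheximide was added for 1 min before lysis. Control cells came from Rnmt fl/fl CD4cre - mice and Rnmt cKO cells from Rnmt fl/fl CD4cre + mice, so that both genotypes carried the floxed allele and only the cKO mice carried Cre. Cre was driven by Cd4 regulatory sequences in T cells from the double positive thymocyte stage on, all mice were kept on a C57BL/6J background, and exon 3 of Rnmt was flanked by loxP sites. Cytoplasmic total RNA and ribosome protected fragments (RPF) of 3 control and 3 cKO cultures gave 12 libraries, with 15079703 to 22629563 counts on genes in total RNA and 4123271 to 10661356 in RPF, of which the library of cKO replicate 3 was the shallowest. The labels number the replicates but do not say that each came from its own mouse, so p-values measure the spread between these libraries. Read counts scaled by TMM to a fixed library size (CPM) are shares of the RNA sequenced in a library, and in bulk cells fewer cells of a type and less RNA per cell cannot be told apart. The authors measured less mRNA per activated cKO cell. They stated that sequencing then understates falls of single genes and overstates rises. A rise or fall given below is therefore one of share and not of RNA per cell.

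T cells that are stimulated through the antigen receptor enlarge before they divide, and they build protein, nucleotides and haem from imported nutrients. SLC7A5 is the light chain of system L, which brings in leucine and other large neutral amino acids in exchange for glutamine. SLC7A5 is disulphide-linked to the heavy chain SLC3A2 (CD98), together with which it reaches the plasma membrane. SLC1A5, SLC38A1 and SLC38A2 carry glutamine and small neutral amino acids, SLC7A1 carries arginine and lysine, SLC7A11 exchanges cystine for glutamate, and TFRC (CD71) takes up iron bound to transferrin. RNMT is the enzyme that methylates the guanosine cap of mRNA, and the question of the comparison was how its loss alters RNA abundance and ribosome occupancy in activated cells.

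Rnmt was measured at 95.5, 94.1 and 94.3 CPM in the control total RNA libraries and at 29.3, 32.4 and 30.4 in those of the cKO. In RPF it fell from 104, 87.9 and 98.9 CPM to 10.5, 10.4 and 9.60. The genotypes did not overlap, the log2 fold change was -1.62 in total RNA and -3.24 in RPF, and every library went with its label. CD4 T cell identity was checked with 10 markers (Cd3e, Cd3d, Cd3g, Cd4, Trac, Trbc1, Trbc2, Cd28, Lck and Cd5), none of which was at 0 in any library, with sums of 3276 to 4664 CPM in total RNA. Of these, 7 fell in total RNA and 6 in RPF, where 28.0% and 15.7% of all genes tested fell, among them Cd3g with log2 fold changes of -1.23 and -0.94. Leaving out single replicates gave 5 to 8 decreases in total RNA and 5 to 6 in RPF. Activation markers moved the other way, and 6 of 7 (Cd69, Il2ra, Cd44, Tnfrsf4, Tnfrsf9, Irf4 and Il2 were listed) rose in total RNA and 6 in RPF (26.3% and 14.1% of all genes), with a summed level of 1558 ± 159 CPM in control and 2175 ± 198 in cKO total RNA (SD, n = 3).

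B cell RNA also differed. The summed level of 8 B cell markers was 10.2, 6.83 and 37.6 CPM in control total RNA and 97.5, 117 and 21.4 in cKO, and in RPF it was 13.3, 8.89 and 45.2 in control and 145, 158 and 25.3 in cKO. Ms4a1 was the most abundant of them in all total RNA libraries but control replicate 2, where it was Cd79b. Of the 8 markers 6 were tested in total RNA, of which 3 rose (26.3% of all genes tested did). In RPF all 8 were tested and 4 rose (14.1%). These counts depended on single libraries. In total RNA 1 rose without control replicate 1 or 2 or cKO replicate 1 or 2, 5 without control replicate 3 and 6 without cKO replicate 3, and in RPF 0 rose without control replicate 1 or cKO replicate 1 or 2, 2 without control replicate 2 and 7 without cKO replicate 3 (edgeR). In RPF 2 of them were at 0 in control replicate 2 and 1 in cKO replicate 3. The sum in cKO replicate 3 lay within the control range in both kinds of library. Summed markers stayed at or under 4.41 CPM for myeloid cells, 2.73 for NK cells and 2.71 for erythroid cells in every library. The NK cell sums were higher in all cKO libraries, at 0.270 to 0.424 CPM in control and 1.17 to 2.04 in cKO total RNA. In RPF they were 0 to 0.858 in control and 1.48 to 2.73 in cKO. Regulatory T cell markers summed to at most 20.4 CPM. Of the latter markers, Ikzf4 and Lrrc32 rose in total RNA, and 1 of them without any single replicate other than cKO replicate 3. In RPF 0 of 3 rose by edgeR or DESeq2 (2 had an unadjusted p under 0.05, edgeR's exact test called 1, and edgeR called 1 without control replicate 2), and Foxp3 had a log2 difference of -0.19. For CD8 T cells the sums were 28.2 ± 11.7 CPM in control and 19.2 ± 8.48 in cKO total RNA (SD, n = 3). The part of activation state and of other cell types in the results that follow was not tested.

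Of the 10 genes, 9 passed the filter on low counts in both kinds of library, and Slc7a11 did not. In total RNA 5 of the 9 rose in Rnmt cKO cells and 2 fell at an adjusted p under 0.05 (edgeR's quasi-likelihood test, Benjamini-Hochberg adjustment over all genes tested), where 54.2% of all 11519 genes were called, 26.3% as increased and 28.0% as decreased. In RPF 3 rose and 1 fell, against 29.8% called among 11428 genes, 14.1% as increased and 15.7% as decreased. Translation efficiency (TE), the change in RPF beyond that in total RNA, fell for 1 of the 9 genes and rose for 0 (at an unadjusted p under 0.05, 3 fell and 1 rose), against 9.81% called among 10668 genes, 6.57% as decreased and 3.24% as increased. DESeq2 called 2 decreases and 1 increase in TE, and 834 decreases and 392 increases over all genes. With 1 block per pair of total RNA and RPF libraries of the same genotype and number, 2 of the 9 fell, Slc3a2 being added, and 777 genes fell and 426 rose rather than 701 and 346. The fits that follow have no block unless stated. The median log2 fold change of the 9 genes was 0.30 for total RNA against -0.004 for all genes tested, 0.04 for RPF against 0.008, and -0.16 for TE against 0.04. Libraries of the genotypes did not overlap for 6 of the 9 genes in total RNA (62.3% of all genes), 7 in RPF (46.3%) and 3 in TE (31.9%). When cKO replicate 3 alone was set against the controls, an alternative chosen after seeing the data in which the controls supply the spread, 3 of the 9 genes rose and 2 fell in total RNA, 1 (Slc7a1) rose and 1 (Slc29a1) fell in RPF, and none was called in TE, where Slc7a5 had -0.33 with an adjusted p of 0.193 (edgeR). With that library alone, 2193 genes rose and 2309 fell in total RNA among all tested, 477 rose and 520 fell in RPF, and 81 rose and 294 fell in TE, fewer than the 3024 and 3220, the 1612 and 1796, and the 346 and 701 with all libraries.

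**Figure D1:**
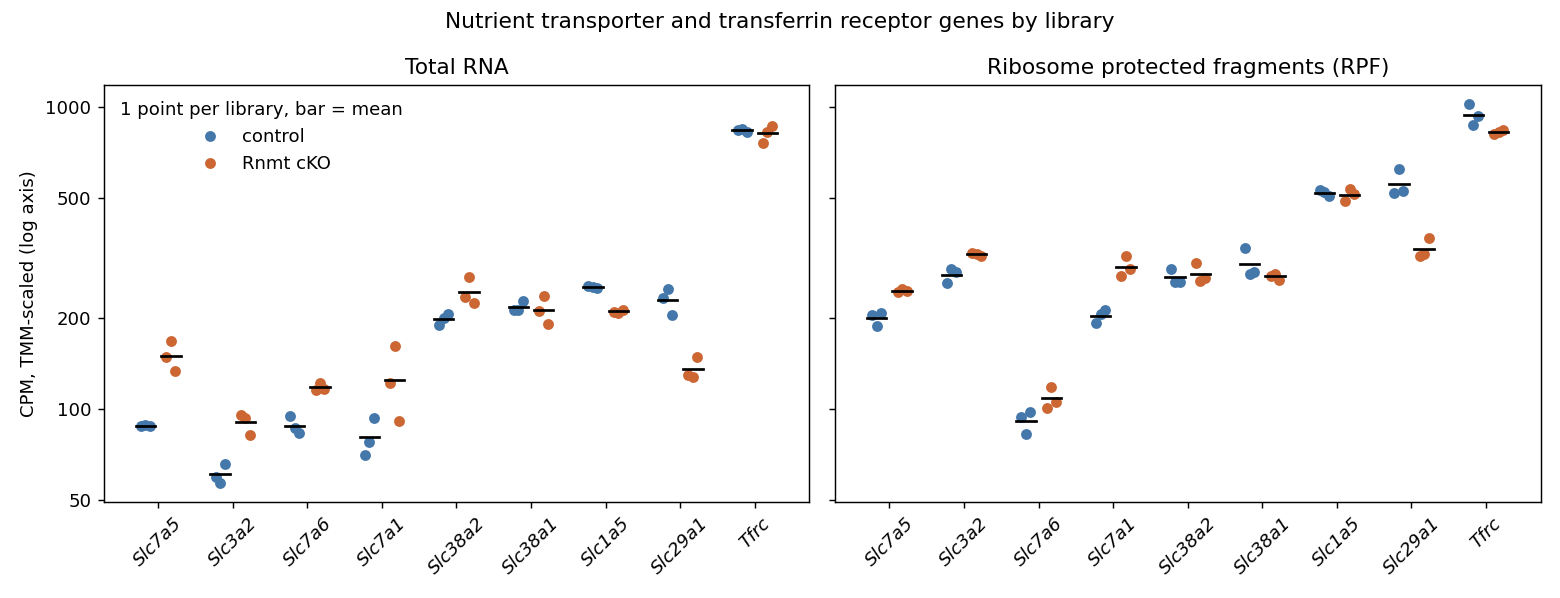
Level of each gene in each library, in CPM on a log axis, for total RNA (left) and RPF (right), with a point for each library and a bar at the mean of the 3 libraries of a genotype. Slc7a5 and Slc3a2 lie higher and Slc29a1 lies lower in all cKO libraries of both kinds, while the levels of Tfrc overlap in total RNA.

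**Figure D2:**
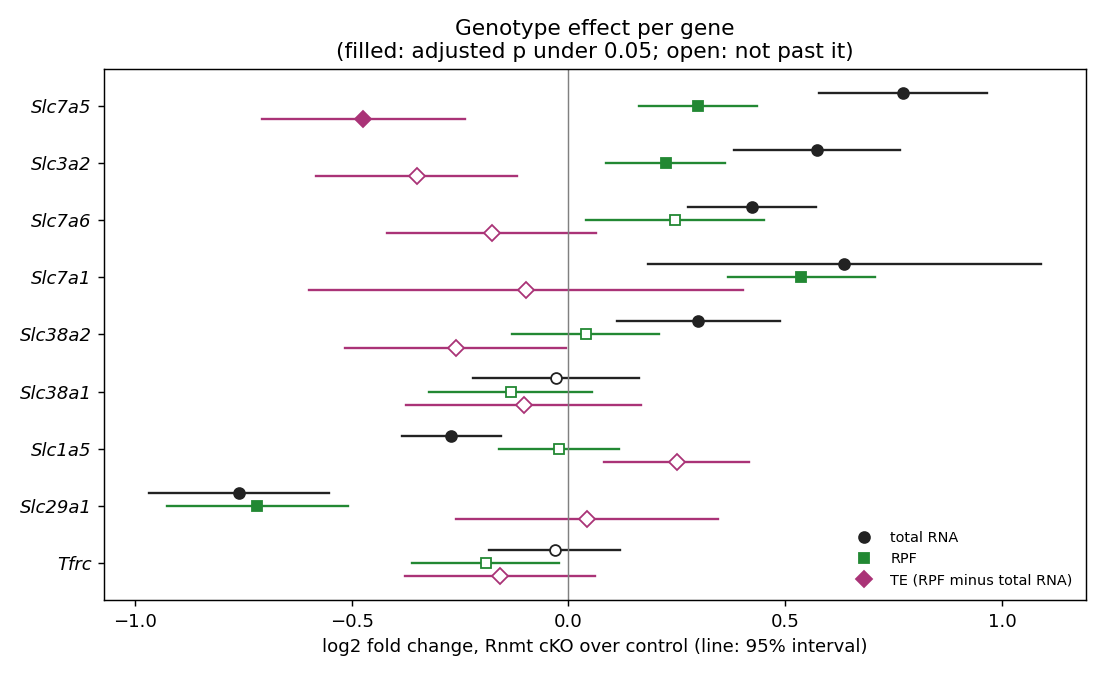
Log2 fold change of Rnmt cKO over control with its 95% interval for total RNA (circles), RPF (squares) and TE (diamonds), filled where the adjusted p was under 0.05. For Slc7a5 the increase is 0.77 in total RNA and 0.30 in RPF, and its TE is the only filled diamond.

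Slc7a5 and Slc3a2, the mRNAs of the system L dimer, rose in both kinds of library. For Slc7a5 the rise was smaller in RPF than in total RNA, while the same difference for Slc3a2 was not called in the fit without a block. Slc7a5 (chr8:121881150-121907694, minus strand, GRCm38) was at 88.1, 88.7 and 87.9 CPM in control total RNA and at 149.6, 169 and 134 in cKO. In RPF it was at 205, 188 and 208 CPM in control and at 244, 250.1 and 246 in cKO. All cKO libraries lay above all controls, and the log2 fold change was 0.77 ± 0.08 (SE, adjusted p = 0.000189, edgeR) in total RNA and 0.30 ± 0.06 (adjusted p = 0.00731) in RPF. The ratio of RPF to total RNA CPM was 2.33, 2.12 and 2.37 in control and 1.63, 1.48 and 1.84 in cKO, without overlap. TE therefore fell by 0.47 on the log2 scale (SE 0.11, 95% interval -0.71 to -0.24, adjusted p = 0.0147, edgeR interaction test). This call was lost without control replicate 1 (-0.46, adjusted p = 0.0801), control replicate 3 (-0.45, adjusted p = 0.0644) or cKO replicate 1 (-0.48, adjusted p = 0.0613) in the same edgeR fit.

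Slc3a2 (chr19:8706882-8723369, minus strand), the heavy chain, was at 59.5, 57.1 and 66.1 CPM in control total RNA and at 95.9, 93.7 and 82.6 in cKO. Its RPF levels were 261, 291 and 286 CPM in control and 328, 327 and 322 in cKO. The genotypes did not overlap in either kind, and the log2 fold change was 0.57 ± 0.08 (SE, adjusted p = 0.000745, edgeR) in total RNA and 0.22 ± 0.06 (adjusted p = 0.0247) in RPF. The RPF call was lost without control replicate 1 (0.17, adjusted p = 0.0927, edgeR), control replicate 3 (0.24, adjusted p = 0.0537), cKO replicate 1 (0.22, adjusted p = 0.0669) or cKO replicate 2 (0.23, adjusted p = 0.0575). Slc3a2 had the highest ratio of RPF to total RNA CPM of the 9 genes, 4.39, 5.09 and 4.32 in control and 3.42, 3.49 and 3.90 in cKO, again without overlap. Its TE change of -0.35 ± 0.11 (SE) had an adjusted p of 0.0582 without a block, and of 0.0464 (edgeR) with a block for each pair of total RNA and RPF libraries of the same genotype and number. Without cKO replicate 3 it was -0.41 with an adjusted p of 0.0347 (edgeR).

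**Figure D3:**
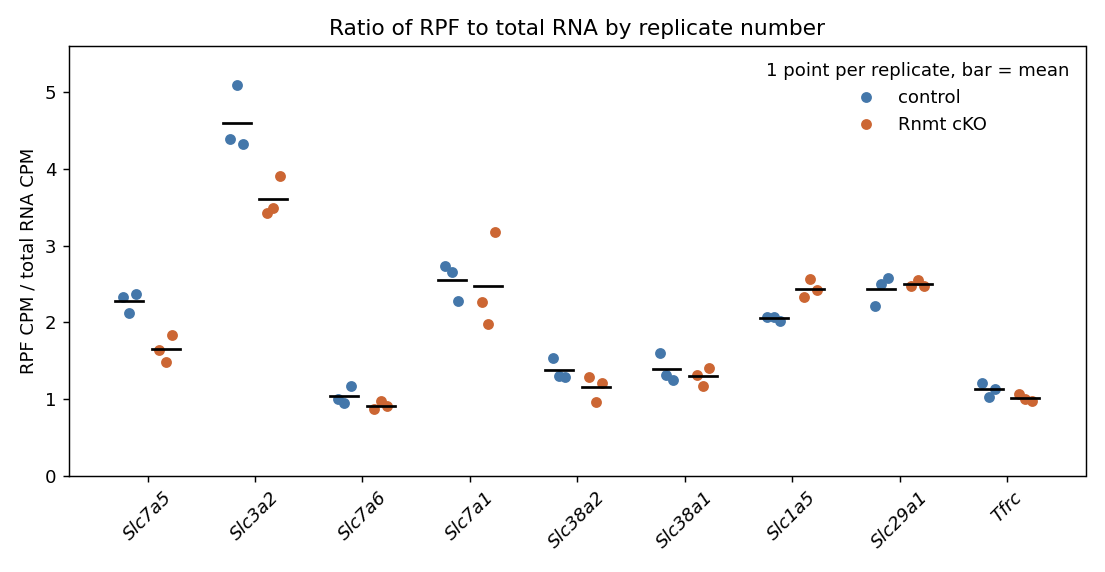
Ratio of RPF CPM to total RNA CPM for each replicate number, with a bar at the mean of the 3 ratios of a genotype. Slc7a5 and Slc3a2 lie lower and Slc1a5 lies higher in all cKO replicates, and the other genes overlap.

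The proportions of heavy and light chains were compared next, since the chains work as a dimer. Per kb of coding sequence, Slc7a5 made up 68.5% ± 0.780 of the RPF of 5 light chains that pair with SLC3A2 (Slc7a5, Slc7a6, Slc7a7, Slc7a8 and Slc7a11) in control and 69.3% ± 1.44 in cKO (SD, n = 3), and Slc7a6 made up nearly all of the rest. In total RNA per kb of exon, the share of Slc7a5 was 51.5% ± 1.60 in control and 57.2% ± 2.38 in cKO. RPF of Slc3a2 over these 5 light chains summed, both per kb of coding sequence, was 0.867 ± 0.0930 in control and 0.830 ± 0.0274 in cKO (exact permutation test over libraries, two-sided, p = 0.8, where 3 against 3 cannot go below 0.1). The matching ratio in total RNA was 0.414 ± 0.0413 and 0.402 ± 0.0243 (exact permutation p = 0.7). Over Slc7a5 alone the RPF ratio was 1.27 ± 0.124 and 1.20 ± 0.0168 (exact permutation p = 0.6). In total RNA it was 0.804 ± 0.0650 and 0.704 ± 0.0512, with all cKO libraries below all controls (exact permutation p = 0.1, the smallest the design allows). The log2 difference of that ratio, -0.19, is the difference between the fold changes of the heavy and the light chain.

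Slc7a6 (chr8:106168857-106198706, plus strand) is a second light chain of SLC3A2, of system y+L, which exchanges arginine against glutamine. It was at 94.9, 87.0 and 83.4 CPM in control total RNA and at 116, 122 and 117 in cKO, and rose by 0.42 ± 0.06 on the log2 scale (SE, adjusted p = 0.000914, edgeR). Its RPF levels were 94.7, 82.8 and 97.9 CPM in control and 101, 119 and 106 in cKO. They did not overlap, but the log2 fold change of 0.24 (95% interval 0.04 to 0.45) had an adjusted p of 0.0722. Slc7a6 had the lowest mean ratio of RPF to total RNA CPM of the 9 genes, 1.04 ± 0.12 in control and 0.917 ± 0.050 in cKO (SD, n = 3). Its ratios overlapped those of Tfrc in control and those of Slc38a2 in cKO. The TE difference of Slc7a6, -0.18 (95% interval -0.42 to 0.06), was not called.

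Slc7a11 (chr3:49892526-50443614, minus strand), the light chain of the cystine/glutamate exchanger, was close to absent. It had 0, 0 and 2 counts in the control total RNA libraries and 12, 12 and 16 in those of the cKO, where all 3 lay above all controls. Summed over the libraries, 2 counts in control and 40 in cKO gave a ratio of 19.7 after scaling by library size, with an exact 95% interval of 5.10 to 168 for counting error only. RPF gave 3, 0 and 2 counts in control and 4, 3 and 0 in cKO, a ratio of 1.56 (exact 95% interval 0.426 to 6.23), so that no difference in footprints was detectable at this depth. Fitted without the filter on low counts, Slc7a11 was called as increased in total RNA (log2 4.06 ± 0.69, SE, adjusted p = 5.88e-08, edgeR) and had an adjusted p of 0.819 in RPF. The p-value for total RNA rests on 2 and 40 counts and comes from another fit. It cannot be ranked against those of the other genes. The gene spans 2 other annotated genes on its strand, Gm37692 and Gm37498, and some of these reads could belong to them. Gm37854, Gm37826 and Gm2345 overlap it on the other strand, and counting both strands together gave 1 to 6 times its counts. Its mean level in cKO total RNA was 0.0719 CPM per kb of exon, beside 42.8 for Slc7a5.

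The promoter of Slc7a11 is shown because it holds a pair of elements of the amino acid response, the composite site of letters TGATGNAAN that C/EBP and ATF proteins such as ATF4 are known to bind. RefSeq promoter windows (GRCm38, 250 bases before to 50 after a start) were found for 7 of the 10 genes, 17 windows in all, and both strands were searched. No window was found for Slc7a5, Slc1a5 and Slc38a1, so these genes were not searched. The site was found in the window of Slc7a11 in 2 copies that face each other on opposite strands, here read along the minus strand at chr3:50443653-50443679, from 66 to 40 bases before the annotated start, with the first 8 letters of each copy in capitals and its last letter, which may be any base, in lower case:
Slc7a11 promoter: TGATGCAAacctggagaatTTGCATCA
No window of the other genes searched held it, and 3.95% of the 32851 windows of all genes did. The E-box of letters CACGTG, known to be bound by MYC and MAX, was in 7.15% of all windows and, of the windows searched here, in 1 of the 8 of Slc29a1 alone. These are matches of letters and not sites shown to be bound.

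Slc7a1 (chr5:148327410-148399904, minus strand), the main arginine and lysine carrier of system y+, had the largest RPF increase of the 9 genes. In RPF it was at 193, 207 and 214 CPM in control and at 277, 322 and 291 in cKO, without overlap, a log2 fold change of 0.54 ± 0.07 (SE, adjusted p = 0.00139, edgeR). Total RNA was more scattered, at 70.5, 78.0 and 93.8 CPM in control and 122, 163 and 91.8 in cKO. Replicate 3 of the cKO lay inside the control range in total RNA and above all controls in RPF. The total RNA log2 fold change of 0.64 ± 0.20 (SE, adjusted p = 0.0256, edgeR) was not called without control replicate 1 (0.54, adjusted p = 0.0929), control replicate 2 (0.61, adjusted p = 0.0775) or cKO replicate 1 (0.67, adjusted p = 0.0503). It was lowest without cKO replicate 2 (0.42, adjusted p = 0.0427, edgeR) and highest without cKO replicate 3 (0.83, adjusted p = 0.00241). The TE difference of -0.10 had a 95% interval of -0.60 to 0.40, which leaves room for the change seen in Slc7a5.

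The glutamine carriers differed from each other. Slc1a5 (chr7:16781340-16798274, plus strand; ASCT2) was at 256, 254 and 253 CPM in control total RNA and at 210.0, 209 and 214 in cKO. It fell by 0.27 on the log2 scale (SE 0.05, adjusted p = 0.00239, edgeR), and the libraries of each genotype lay within a narrow band. RPF of Slc1a5 was at 530.4, 525 and 509.8 CPM in control and 489.9, 535 and 518 in cKO, overlapping, with a log2 difference of -0.02 (95% interval -0.16 to 0.12). Its ratio of RPF to total RNA CPM was 2.05 ± 0.03 in control and 2.44 ± 0.11 in cKO (SD, n = 3), the reverse of Slc7a5 and without overlap, but the TE difference of 0.25 ± 0.08 (SE) had an adjusted p of 0.0615 in edgeR.

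Slc38a2 (chr15:96687392-96699730, minus strand; SNAT2), the system A carrier known to be induced when amino acids are scarce, was at 190.2, 201 and 206 CPM in control total RNA and at 236, 274 and 225 in cKO. It rose by 0.30 ± 0.08 on the log2 scale (SE, adjusted p = 0.0149, edgeR), a call lost without control replicate 1 (0.26, adjusted p = 0.0662). Its RPF overlapped at 263 to 292 CPM in control and 266 to 305 in cKO, with a log2 difference of 0.04 (95% interval -0.13 to 0.21). Slc38a1 (chr15:96571418-96642913, minus strand; SNAT1), its neighbour on the chromosome, was at 213, 213 and 228 CPM in control total RNA and at 211, 238 and 192 in cKO. The log2 difference of -0.03 had a 95% interval of -0.22 to 0.16. In RPF Slc38a1 was at 341, 280.1 and 285 CPM in control and 277, 280.1 and 269 in cKO, where the genotypes touched without crossing and the difference of -0.13 (95% interval -0.32 to 0.05) was not called.

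Slc29a1 (chr17:45585200-45599606, minus strand), the equilibrative nucleoside transporter ENT1, was the only gene of the 10 that fell in both kinds of library. It was at 234, 249.8 and 206 CPM in control total RNA and at 130.2, 128 and 149 in cKO. In RPF it was at 519, 625 and 529.7 CPM in control and at 322, 326 and 369.9 in cKO. The genotypes lay far apart in both kinds, and the log2 fold change was -0.76 ± 0.09 (SE, adjusted p = 0.000286, edgeR) in total RNA and -0.72 ± 0.09 (adjusted p = 0.00102) in RPF, with a TE difference of 0.04 (95% interval -0.26 to 0.34). The gene Gm17080 overlaps it on the other strand, and counting both strands together gave 0.726 to 0.842 times its counts, with the calls as above. Among 7 other nucleoside and nucleobase carriers, 4 were tested, of which 3 rose and 1 fell in total RNA and 1 rose and 1 fell in RPF, where 54.2% and 29.8% of all genes were called. Without control replicate 1 or 2 or cKO replicate 2, 1 rose in total RNA, and without control replicate 1 or 3 or cKO replicate 1 or 2, 0 rose in RPF (edgeR). Slc28a2, which concentrates purine nucleosides with sodium, fell from 39.0 ± 3.96 to 17.1 ± 2.33 CPM in total RNA (SD, n = 3, log2 -1.20) and by 0.62 on the log2 scale in RPF. Slc29a3, an intracellular nucleoside transporter, rose from 13.6 ± 0.82 to 40.8 ± 8.58 CPM in total RNA (log2 1.58) but was at 44.7 ± 1.70 and 51.0 ± 4.96 CPM in RPF, and its TE fell by 1.40 on the log2 scale. Slc43a3, a purine nucleobase carrier, rose by 0.35 in total RNA and 0.37 in RPF on the log2 scale.

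Tfrc (chr16:32608920-32632794, plus strand) was the most abundant of the 10 mRNAs and showed no called difference. It was at 843, 845 and 825 CPM in control total RNA and at 762, 828 and 868 in cKO, overlapping, with a log2 difference of -0.03 (95% interval -0.18 to 0.12). In RPF it was at 1026, 871 and 938 CPM in control and at 815, 826 and 844 in cKO. All RPF libraries of the cKO lay below all controls, and the difference of -0.19 (95% interval -0.36 to -0.02) had an adjusted p of 0.0865. Without control replicate 2 it was -0.25 with an adjusted p of 0.0416 (edgeR). The TE difference was -0.16 (95% interval -0.38 to 0.06).

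Iron-responsive elements are RNA hairpins bound by the iron regulatory proteins, which are known to stabilise the Tfrc mRNA through its 3′ UTR and to block translation of the ferritin mRNAs from their 5′ UTR when iron is low. Their sequences are shown because the same loop serves both genes in opposite ways. The pattern was a bulged C, 5 stem bases, CAGTG with any base after it, and 5 bases that pair with the first 5. G-T pairs were allowed. The sense strand of whole protein-coding transcripts was searched (GRCm38), coding sequence included. This pattern was found anywhere in a transcript of 288 of 21875 protein-coding genes (1.32%). It matched 4 places in the 3′ UTR of Tfrc, at chr16:32631225-32631241, chr16:32631604-32631620, chr16:32631669-32631685 and chr16:32631716-32631732 on the plus strand, and 1 place each in the 5′ UTR of Fth1, at chr19:9982738-9982754 on the plus strand, and of Ftl1, at chr7:45459785-45459801 on the minus strand. The 5′ UTR of Slc40a1, the iron exporter ferroportin, also held it. The loop is in capitals:
Tfrc element 1: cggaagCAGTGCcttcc
Tfrc element 2: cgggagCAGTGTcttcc
Tfrc element 3: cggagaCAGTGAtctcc
Tfrc element 4: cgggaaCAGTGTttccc
Fth1 element: cttcaaCAGTGCttgaa
Ftl1 element: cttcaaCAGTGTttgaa
The elements of Tfrc have stems rich in G and C, and those of the ferritin genes share a stem. Fth1, the ferritin heavy chain, was at 75.5 ± 16.4 CPM in control and 112 ± 26.9 in cKO total RNA (SD, n = 3), and rose by 0.56 on the log2 scale with overlapping libraries, while in RPF it was at 96.1 ± 7.84 and 86.6 ± 9.02 CPM with a difference of -0.14. Ftl1, the ferritin light chain, fell by 0.27 on the log2 scale in total RNA. Both have processed pseudogenes that can take up their reads, so their levels are uncertain.

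Of 22 other genes of iron handling, 4 of 15 tested rose and 2 fell in total RNA, and 3 of 16 rose and 1 fell in RPF, with medians of 0.06 and 0.06 on the log2 scale, where 54.2% and 29.8% of all genes were called. In total RNA 1 rose without control replicate 1 or 2 or cKO replicate 1 and 2 without cKO replicate 3, while 0 fell without control replicate 1 or cKO replicate 1, 1 fell without control replicate 2 or 3 or cKO replicate 2, and 4 fell without cKO replicate 3 (edgeR). In RPF 1 rose without control replicate 2 or 3 or cKO replicate 1, and 0 fell without control replicate 2 or 3 or cKO replicate 2 or 3. Of these Ireb2, which encodes an iron regulatory protein, rose from 75.4 ± 8.31 to 109 ± 29.6 CPM in total RNA (SD, n = 3, log2 0.53), and Nfs1, the cysteine desulphurase of iron-sulphur cluster assembly, fell by 0.18 on the log2 scale. In RPF Slc39a8, a carrier of zinc, manganese and iron, rose from 41.4 ± 1.90 to 58.8 ± 2.13 CPM (log2 0.50). Fbxl5, the iron-sensing subunit of a ubiquitin ligase for IREB2, rose by 0.37 and Hmox1, the haem oxygenase, rose by 0.64 on the log2 scale in RPF.

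Levels were compared between genes per kb, by exon length in total RNA and by coding length in RPF. In control total RNA Tfrc was highest at 161 ± 2.10 CPM per kb (SD, n = 3), followed by Slc1a5 at 92.0 ± 0.73 and Slc29a1 at 86.6 ± 8.40, which overlapped. Then came Slc38a2 at 42.8 ± 1.76, Slc7a5 at 25.1 ± 0.11, Slc7a6 at 23.6 ± 1.57, Slc38a1 at 20.3 ± 0.81, Slc3a2 at 20.2 ± 1.55 and Slc7a1 at 11.3 ± 1.66, where Slc7a5 overlapped Slc7a6 and Slc38a1 overlapped Slc3a2. In cKO total RNA Slc29a1 was at 51.1 and overlapped Slc38a2 at 52.6 ± 5.49, and Slc7a5 followed at 42.8 ± 4.96. In control RPF Slc29a1 at 404 ± 42.1 CPM per kb and Tfrc at 401 ± 32.9 overlapped at the top, followed by Slc1a5 at 313 ± 6.41, with Slc7a6 lowest of the 9 at 59.4 ± 5.17. In cKO RPF Tfrc was at 351 ± 6.17, Slc1a5 at 309 ± 13.6 and Slc29a1 at 246 ± 19.1, none overlapping its neighbour. Slc7a5 at 161 ± 1.94 and Slc7a1 at 159 ± 12.3 overlapped there, whereas in control Slc7a5 at 131 ± 6.93 lay above Slc7a1 at 110 ± 5.68. The 10 genes together took 2034 to 2225 CPM of total RNA and 3161 to 3463 of RPF, of which Tfrc held 37.2 to 41.9% and 25.4 to 29.6%. Mitochondrial rRNA made up 18.7 to 23.6% of gene counts in total RNA and 2.30 to 4.51% in RPF. Levels in CPM are therefore not directly comparable between the kinds of library.

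Of 37 other amino acid and peptide carriers, 17 passed the filter, of which 4 rose and 5 fell in total RNA, 2 rose and 3 fell in RPF, and 1 rose in TE, beside 54.2%, 29.8% and 9.81% of all genes called. Of the increased genes, Slc1a2 and Slc15a3 passed the filter in both kinds only through the cKO libraries, so their calls are no support for a direction. Increases in total RNA were 1 without cKO replicate 1 and 2 without cKO replicate 2. In RPF they were 1 without control replicate 1 or 3 and 0 without cKO replicate 1, 2 or 3, and decreases were 1 without control replicate 1 or cKO replicate 2. In TE they were 0 without control replicate 1 or 2 or cKO replicate 1 (edgeR). Slc16a10, which carries aromatic amino acids, fell from 64.3 ± 4.86 to 29.2 ± 1.45 CPM in total RNA and from 76.2 ± 2.40 to 49.9 ± 4.30 in RPF (SD, n = 3, log2 -1.14 and -0.62), and its TE rose by 0.52. Slc38a9, the lysosomal arginine sensor of mTORC1, fell by 0.68 in total RNA and 0.70 in RPF on the log2 scale. Cystinosin (Ctns), the lysosomal cystine exporter, fell by 0.51 in total RNA, and Slc36a4 fell by 0.77 in RPF. Slc1a2, a glutamate carrier best known from astrocytes, was at 0.125 ± 0.032 CPM in control and 12.3 ± 5.99 in cKO total RNA, and at 0.396 ± 0.267 and 13.1 ± 3.80 in RPF (SD, n = 3), with 1 to 4 counts in each control library.

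**Figure D4:**
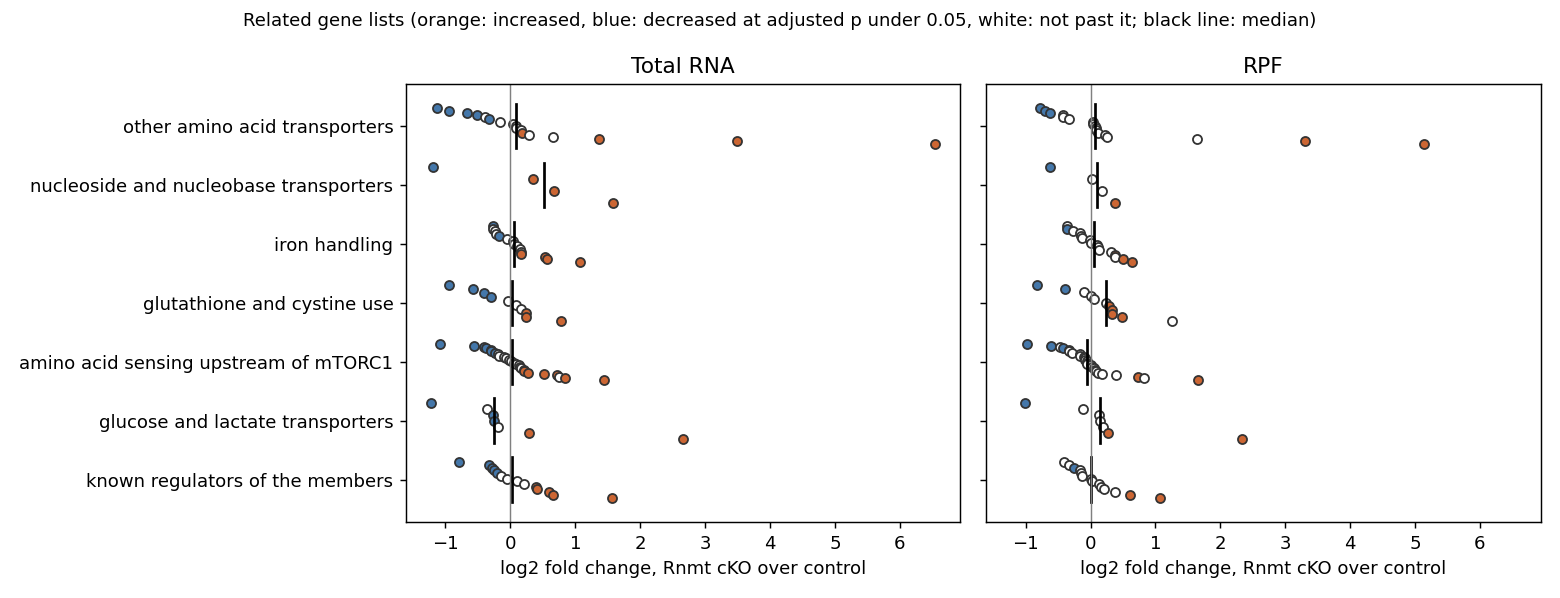
Log2 fold change of Rnmt cKO over control for every tested gene of 7 related lists, in total RNA (left) and RPF (right), coloured by the call, with a black line at the median of each list. Each list holds genes called in both directions, and the 4 nucleoside carriers have the highest median in total RNA, 0.51.

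Of 26 genes that sense amino acids upstream of mTORC1, 6 rose and 6 fell in total RNA, near the 26.3% and 28.0% of all genes. In RPF 2 rose and 3 fell (14.1% and 15.7% of all genes), and in TE 3 fell (6.57%). Without control replicate 1 or cKO replicate 1, 1 rose in RPF, and without control replicate 3, 1 rose in TE (edgeR). Sestrin 2 (Sesn2), a leucine sensor, rose from 14.8 ± 1.25 to 40.2 ± 3.36 CPM in total RNA and from 16.4 ± 2.16 to 51.7 ± 1.51 in RPF (SD, n = 3, log2 1.44 and 1.66). Sestrin 1 (Sesn1) went the other way, from 111 ± 7.30 to 52.0 ± 5.26 CPM in total RNA and from 106 ± 7.82 to 53.8 ± 5.45 in RPF (log2 -1.09 and -0.98). Of the Rag GTPases, Rragc rose by 0.72 in total RNA while its TE fell by 0.78 on the log2 scale, and Rragd rose by 0.84 in total RNA. The Ragulator subunits Lamtor3 and Lamtor4 rose by 0.74 and fell by 0.61 in RPF, and TE fell by 0.69 for Bmt2 (SAMTOR, a sensor of S-adenosylmethionine) and by 0.44 for Seh1l, a subunit of GATOR2.

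Glutathione and thioredoxin genes held 3 of 10 that rose and 4 that fell in total RNA. In RPF 4 of 11 rose and 2 fell, and in TE 1 of 10 fell. Of all genes, 54.2%, 29.8% and 9.81% were called in total RNA, RPF and TE. Without control replicate 3 or cKO replicate 2, 2 rose in RPF. In TE 1 rose without control replicate 1 or cKO replicate 2, and 1 fell without control replicate 3 and 0 without any other replicate (edgeR). Glutathione synthetase (Gss) rose by 0.78 in total RNA while its TE fell by 0.49 on the log2 scale. Glutaredoxin (Glrx) fell by 0.95 and 0.82, and the glutathione peroxidase Gpx1 by 0.40 and 0.40, in total RNA and RPF, and Gpx4 fell by 0.57 in total RNA. Thioredoxin (Txn1) and its reductase Txnrd1 rose by 0.34 and 0.49 in RPF. Of 8 glucose and lactate carriers and their chaperone, 7 were tested, of which 2 rose and 3 fell in total RNA, 2 rose and 1 fell in RPF, and 1 rose in TE, against the same shares of all genes. In total RNA 1 fell without control replicate 1 or cKO replicate 1. In RPF 0 rose without control replicate 2 or cKO replicate 2 and 1 without any other replicate, and in TE 1 rose without cKO replicate 3 and 0 without any other replicate (edgeR). The lactate exporter Slc16a3 fell by 1.22 and 1.01 on the log2 scale in total RNA and RPF, whereas Slc16a1 rose by 0.29 and 0.28. Slc2a1, the glucose transporter GLUT1, fell by 0.26 in total RNA and had a difference of -0.11 in RPF. Basigin (Bsg), the chaperone of the lactate carriers, fell by 0.25 in total RNA while its TE rose by 0.40. Slc2a6 was at 1.5, 2.26 and 2.57 CPM in control RPF and at 9.01, 18.7 and 2.46 in cKO, where replicate 3 lay inside the control range, and it was called as increased.

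A list of 14 genes known to control these carriers held 5 that rose and 5 that fell in total RNA, 2 and 1 in RPF, and 1 and 1 in TE. Of all genes 26.3% rose and 28.0% fell in total RNA, 14.1% and 15.7% in RPF, and 3.24% and 6.57% in TE. In RPF 0 fell without control replicate 3 or cKO replicate 1 or 2, and in TE 0 rose without control replicate 1 or 2 or cKO replicate 1 or 3 (edgeR). Myc, known to induce Slc7a5, Slc3a2, Slc1a5 and Tfrc on T cell activation, rose from 54.3 ± 11.6 to 161 ± 49.7 CPM in total RNA and from 557 ± 57.2 to 1174 ± 127 in RPF (SD, n = 3, log2 1.57 and 1.08). Atf4, the activator of the amino acid response, was at 253 ± 5.18 and 271 ± 7.75 CPM in total RNA, and rose from 164 ± 27.3 to 251 ± 21.0 in RPF (log2 0.61) with a TE increase of 0.51. Ddit3 (CHOP), a partner and target of ATF4, fell by 0.80 in total RNA. Keap1, the adaptor that marks NRF2 for degradation, rose by 0.60 in total RNA while its TE fell by 0.47 on the log2 scale. Zc3h12a (Regnase-1), an RNase known to cleave the Tfrc 3′ UTR, rose by 0.66 in total RNA, and Hif1a fell by 0.26 in RPF.

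The genes most like 3 of the members were sought among 6545 expressed protein-coding genes, by the root mean square difference over the 12 libraries of log2 CPM (with a prior count of 2) minus the mean of the 3 control libraries of the same kind. Slc7a5 was nearest to Arhgef2 (0.052), Csnk1d (0.064) and Sirt1 (0.067), Slc3a2 to Ppp5c (0.054), Mapk1ip1l (0.057) and Nfe2l1 (0.061), and Tfrc to Hspa13 (0.055), Exoc3 (0.063) and Tubgcp5 (0.065). Arhgef2 shared the pattern of Slc7a5 in both kinds, with log2 fold changes of 0.86 in total RNA and 0.31 in RPF. By the same measure Slc7a5 and Slc3a2 differed by 0.13, Slc7a5 and Slc7a1 by 0.20, Tfrc and Slc38a1 by 0.10, and Slc7a5 and Slc29a1 by 0.93.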

How the data were processed

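Total RNA and RPF of activated CD4 T cells were prepared with the Illumina TruSeq Ribo Profile kit. The authors used read 2, removed adapters with Cutadapt and ribosomal RNA and tRNA reads with Bowtie, aligned with STAR 2.5.2b to mm10 with GENCODE basic annotation (mm10 is GRCm38), and deposited raw counts per gene for each library. A table of 10126 genes that the authors deposited holds a normalized signal per library together with fold changes and p-values of their own, which were not used. Counts of the reverse strand gave this signal up to 1 factor per library for 100% of genes within 0.1%, and were used here. Reads that named no gene were left out of library sizes, among them unmapped reads (7.48 to 10.7% in total RNA, 26.5 to 33.6% in RPF) and multimapping reads (24.3 to 30.1% and 22.9 to 31.0%).

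Genes with a CPM above 1 in at least 3 libraries of a kind (both kinds for TE) were tested with edgeR 4.0.16 in R 4.3.3, using TMM, the quasi-likelihood F test and the Benjamini-Hochberg adjustment over all genes with a threshold of 0.05. For TE, the 12 libraries entered 1 fit and the genotype by kind interaction was tested. The step was tested on simulated data. Printed CPM carry no prior count, whereas the shares of genes without overlap were judged on log2 CPM with a prior count of 2. The standard error is that implied by the F statistic. Exon and coding lengths came from GENCODE vM21 basic (GRCm38), a later release than the one used for counting. Sequences came from GRCm38 and, for promoters, RefSeq. Figures were made with matplotlib 3.10.9 in Python 3.11.15.

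The members and lists were chosen with earlier results of these data known. From each list, in each comparison, at most the 4 called genes with the largest change among those whose average log2 CPM reached 2 were named, and the 3 nearest genes for 3 members. The result of 1 gene that this rule names is not reported here. Total RNA and RPF libraries of the same genotype and number deviated from their group means together (r = 0.167, 0.197 and 0.378 in control and 0.108, 0.372 and 0.296 in cKO, across genes, which are not independent replicates). They may therefore come in pairs, but with 3 libraries per group this is not certain, and no label states it. The main fit had no block for these pairs, and the fit with it is given beside the TE results it changed. Intervals for single counts cover counting error only, since duplicate reads were not separated. The alternatives tried were DESeq2 1.42.0, scaling by library size alone, edgeR's exact test, other filters on low counts, both strands, protein-coding genes only, replicate blocks, no division by length, each replicate left out, and cKO replicate 3 alone against the controls, chosen after seeing the data.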

Additional observations from a re-analysis of the deposited data

Results flagged for a closer look

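The effect of genotype on Slc7a5 differed between the 2 kinds of library. Its log2 fold change was 0.77 in total RNA and 0.30 in RPF, and the test of the difference itself, the edgeR interaction over 12 libraries, gave -0.47 with an adjusted p of 0.0147. The ratio of RPF to total RNA was lower in 3 of 3 cKO replicates than in any control, and leaving out single replicates gave -0.55 to -0.40. The call was lost without control replicate 1 (adjusted p = 0.0801), control replicate 3 (adjusted p = 0.0644) or cKO replicate 1 (adjusted p = 0.0613), and with cKO replicate 3 alone against the controls (adjusted p = 0.193).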

How the results depend on the processing

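For the 9 genes tested, no call changed direction under any alternative. Of the results for single genes, 128 for total RNA and 125 each for RPF and TE stayed on their side of the threshold, 19 calls were lost (7, 8 and 4) and 8 were gained (2 in RPF and 6 in TE). In TE, 2 of the 9 genes fell instead of 1 without TMM, with DESeq2, with protein-coding genes only and with a replicate block by genotype and number, in each case through Slc3a2 (-0.36, -0.36, -0.36 and -0.35), and DESeq2 also called 1 increase, of Slc1a5 (0.24, adjusted p = 0.0162). Without a filter on low counts, Slc7a11 was tested and called, so that 6 genes rose in total RNA instead of 5, 214 genes rose in TE rather than 346, and Slc3a2 lost its RPF call (0.19, adjusted p = 0.1396), as it did with edgeR's exact test (0.22, adjusted p = 0.0640). Slc7a6 gained an RPF call with protein-coding genes only (0.25, adjusted p = 0.0430). Leaving out each replicate gave 3 to 5 increases and 2 to 2 decreases among the 9 genes in total RNA. For RPF these were 2 to 3 and 1 to 2, while TE had 0 to 0 increases and 0 to 2 decreases. Over all genes it gave 2303 to 3145 increases and 2585 to 3151 decreases in total RNA. For RPF it gave 1085 to 1414 increases and 1264 to 1526 decreases, and TE had 122 to 367 increases and 415 to 812 decreases. The log2 difference of the heavy chain over the 5 light chains ranged from -0.13 to 0.0246 in RPF and from -0.09 to 0.04 in total RNA, and that over Slc7a5 from -0.14 to -0.00101 in RPF and from -0.24 to -0.13 in total RNA.

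With cKO replicate 3 alone against the controls, which assumes that the lone library varies like the controls, 3 of the 9 genes rose and 2 fell in total RNA, 1 rose and 1 fell in RPF and 0 fell in TE, where over all genes 2193 rose and 2309 fell in total RNA, 477 rose and 520 fell in RPF and 81 rose and 294 fell in TE. Slc7a5 then had log2 fold changes of 0.63 (adjusted p = 0.000542) in total RNA, 0.29 (adjusted p = 0.108) in RPF and -0.33 (adjusted p = 0.193) in TE, Slc7a1 0.21 (adjusted p = 0.274) and 0.51 (adjusted p = 0.0260) in total RNA and RPF, and Slc29a1 -0.60 (adjusted p = 0.00583) and -0.60 (adjusted p = 0.0428), all by edgeR. Fewer libraries enter this fit. Numbers did not pair control with cKO libraries (r of same-numbered deviations across genes -0.286, -0.223 and -0.524 in total RNA and 0.152, -0.054 and -0.057 in RPF), and a replicate block took the total RNA call from Slc7a1 alone (0.61, adjusted p = 0.0589).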
